A study of Drosophila melanogaster with 2 samples.

Results

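NC2alpha is a subunit of negative cofactor 2, and its signal at 1306 promoter peaks that stood just below the authors' reproducibility cut is described here. The study precipitated chromatin with an anti-GFP antibody from 0 to 24 hour embryos, whole and of both sexes, of a Drosophila melanogaster line that stably carries NC2alpha with eGFP at its C terminus. It holds 1 group with 2 biological replicates, and no condition, stage or tissue was compared. The embryos were pooled over all embryonic stages, so a peak can come from a few stages or cell types or from many. The fusion protein is read through its tag, and no untagged line was used here.

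The members were chosen by the strength of their signal. The authors' pooled list of peaks and background on Release 6 of the genome (dm6) held 30000 peaks, and the top of it by signal was identical to the list that passed their reproducibility filter (the optimal list). The 2826 peaks that followed, down to rank 5000, were taken, and 1306 of them had the summit within 500 bp of an annotated transcription start site (TSS) of a protein-coding gene in Ensembl 115. They were set against the 1117 optimal peaks that met the same distance limit, called optimal promoter peaks below. Signal is the authors' own value per peak relative to a control, in a unit that their notes do not name. The signal of the members ran between 53.9 and 81.9 (median 63.4), against 82.0 to 1230.2 (median 120.3) in optimal promoter peaks, which restates how they were chosen. Next to the upper limit lay Ppcdc inside (signal 81.9) and CG12091 outside (82.0). Next to the lower limit lay Vm34Ca inside (53.9) and gem outside (53.8). At the distance limit, 44 members had their nearest TSS 451 to 500 bp away, and 33 peaks of the same ranks had it 501 to 550 bp away.

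Negative cofactor 2 is a dimer of NC2alpha and NC2beta that clamps onto TATA-binding protein on DNA and keeps the general factors TFIIA and TFIIB from joining it. In Drosophila it was described as repressing promoters with a TATA box and activating those with a downstream promoter element (DPE) in extracts. Fly core promoters fall into classes by their short motifs. TATA boxes, Initiators and DPEs are common at developmentally regulated genes with focused starts, the TCT initiator at genes of the translation machinery, and the DRE, Ohler 1, Ohler 6, Ohler 7 and E-box motifs at broadly expressed genes.

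The promoters below are the strongest members that hold each of the 11 motifs searched, leaving out the arm from which no sequence is printed here. They show what the motif counts further down were read from. Each is written 5′ to 3′ on the strand of its gene, from the RefSeq copy of dm6, with the motif match in capitals. Motif positions count from 1 at the TSS, with no position 0. The TCT match at ThrRS begins past the annotated TSS, at 3, and was counted because the window searched ran from -6 to 8.
dmGlut, TATA box at -27 (chr2L:12027318-12027437, + strand, signal 80.8): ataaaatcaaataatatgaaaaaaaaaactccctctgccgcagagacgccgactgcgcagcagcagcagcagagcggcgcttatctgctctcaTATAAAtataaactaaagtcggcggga
HERC2, Initiator at -2 (chrX:20394380-20394409, + strand, signal 80.7): attacttgatagcTCAGTcagtttgcacct
ThrRS, TCT initiator at 3 (chr2L:12103741-12103770, + strand, signal 80.2): taacactgtgccCCTTTTtgataaatttgt
Tep4, DPE, of which 2 overlap, from 25 (chr2L:19549704-19549733, + strand, signal 80.2): cggctctgatcccAGTCGGTCGcagtcgct
CG4360, DRE at -74 (chr3R:20328004-20328123, - strand, signal 81.4): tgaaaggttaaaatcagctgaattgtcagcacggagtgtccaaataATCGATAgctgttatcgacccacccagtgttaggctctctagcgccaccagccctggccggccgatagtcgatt
mod, Ohler 1 at -1 (chr3R:32052608-32052637, + strand, signal 80.9): tagagcacaacGGTCACACtgttctgtccc
Gmppb, Ohler 6 at -136 (chr3R:4813188-4813217, + strand, signal 80.9): taaactgaaaaGTATTTTTtaagattcttc
MBD-like, Ohler 7 at -23 (chr3R:9559640-9559759, + strand, signal 81.2): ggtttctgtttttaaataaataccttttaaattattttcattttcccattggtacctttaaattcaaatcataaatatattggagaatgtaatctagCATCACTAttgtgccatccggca
Adck5, E-box at -23 (chr3L:11170039-11170068, + strand, signal 81.9): cgggtctacaaaCAGCTGttcggcctttcc
bun, GAGA at -66 (chr2L:12461257-12461376, - strand, signal 81.0): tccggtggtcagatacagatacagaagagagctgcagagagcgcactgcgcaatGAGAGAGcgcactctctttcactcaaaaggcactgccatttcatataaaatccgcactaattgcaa
CG12194, Zelda at -144 (chr2L:4838312-4838341, + strand, signal 75.7): cagctaCAGGTAGggaaaccaggtaatacc

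Before the replicates are used, a feature of the lists has to be given. Pooled peaks were 404 bp wide at the median, and 58 members (4.44%) overlapped an optimal peak, with summits 199 to 309 bp from the optimal summit. In 47 of the 58 the summits were 190 to 210 bp apart. A replicate's value at a member was that of the strongest peak of the replicate's list to overlap it, and at these members the replicate values could be those of the neighbouring optimal peak. At CG3552, pooled signal 77.0, the replicate values were 198.4 and 174.9, with an optimal summit 205 bp away. At mlt the member (pooled signal 60.8) and the optimal peak 200 bp from it (82.0) had the same replicate values, 71.5 and 12.3. The replicate signals summed to 1.76 times the pooled signal (median) in the 58 overlapping members, to 0.994 times in the other 1248 members, and to 0.999 times in optimal promoter peaks. Replicate results are therefore given for the 1248 members that overlap no optimal peak, with the value over all 1306 where so stated. A further 54 members overlapped another member, so 112 overlapped a peak of either kind.

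The share of peaks at promoters did not step down at the cut. Of the 2826 peaks that followed the optimal list, 46.2% lay at coding TSSs (exact 95% binomial interval 44.4 to 48.1), against 51.4% of optimal peaks (49.3 to 53.5). In bins of 500 pooled ranks the share was 56.4% for ranks 1 to 500, 51.8% for the bin that spans the cut (ranks 2001 to 2500) and 50.4% in the next. It was 41.8% for ranks 4501 to 5000 and 18.6% for the last 10000 of the 30000 pooled peaks. Intervals here and below cover counting error only, and peaks of the same chromatin are not replicates, so no test between rank ranges was made. The size of the gap differed between replicates. Each replicate's own list was divided at the same ranks. In replicate 1's list 49.6% of the peaks below the cut, down to rank 5000, lay at coding TSSs, against 52.4% of those above it. In replicate 2's list the shares were 36.9% below and 51.2% above.

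**Figure D1:**
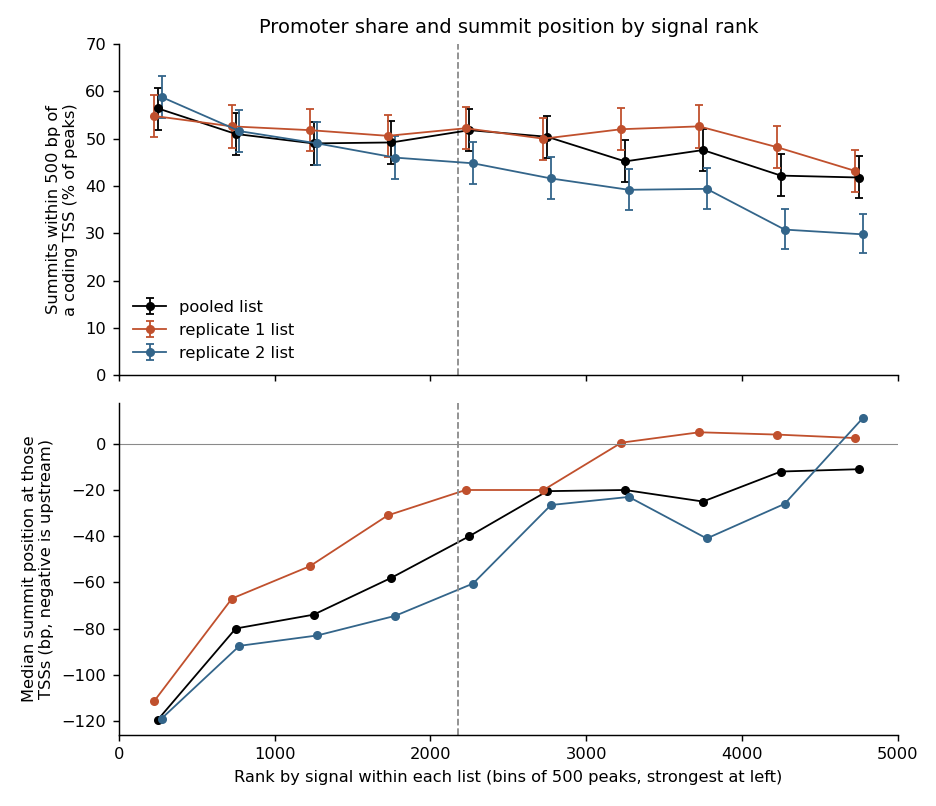
Upper panel, the percent of peaks with the summit within 500 bp of a coding TSS in bins of 500 ranks, for the pooled list and each replicate's own list (bars are exact 95% binomial intervals); lower panel, the median summit position in bp at those TSSs. The dashed line marks the end of the optimal list; the pooled share is 51.8% in the bin that spans it, and the median position moves toward 0 on both sides of it.

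Summits of members lay past the start site more often than those of optimal promoter peaks, at a like distance from it. The median distance, taken without sign, was 95 bp in members (89 to 104) and 100 bp in optimal promoter peaks (92 to 106). The median summit position of members was -18 bp relative to the nearest coding TSS (95% interval of the median -28 to -12), where negative values are upstream, against -79 bp (-87 to -67) in optimal promoter peaks. Upstream summits made up 56.4% of members and 77.4% of optimal promoter peaks. Summits more than 50 bp downstream numbered 372 members (28.5%; 26.0 to 31.0) and 134 optimal promoter peaks (11.996%; 10.1 to 14.05). Both groups had about the same share within 100 bp of the TSS on either side, 51.8% of members and 50.1% of optimal promoter peaks.

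The shift was seen in each replicate's own ranked list, both of which fed the pooled list and are not independent of it. In replicate 1's list the median position was -6 bp below the cut and -59 bp above it. In replicate 2's list it was -31 bp below and -90 bp above. The share more than 50 bp downstream was 33.0% against 16.2% in replicate 1's list and 31.3% against 10.9% in replicate 2's. The change was gradual along the pooled ranks: the bin medians were -119.5 bp for ranks 1 to 500, -58 bp for ranks 1501 to 2000, -40 bp across the cut and -11 bp for ranks 4501 to 5000. In the last 10000 peaks the median was 61 bp downstream. Without the 58 members that overlap an optimal peak the median stayed at -18 bp, and 28.8% lay more than 50 bp downstream.

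**Figure D2:**
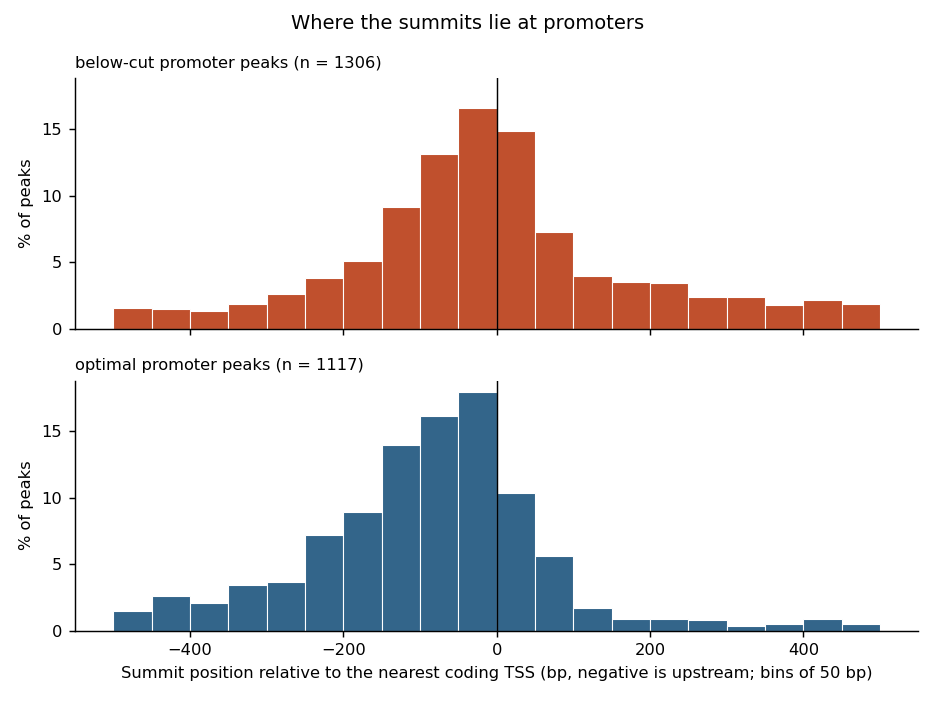
Percent of peaks by summit position relative to the nearest coding TSS (bp, bins of 50 bp), members above and optimal promoter peaks below. The members' distribution has a longer downstream side: 28.5% of members lie more than 50 bp past the TSS, against 134 of 1117 optimal promoter peaks.

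The annotation under the summits moved with the position. Summits in coding sequence numbered 119 among members (9.11%; interval 7.61 to 10.8) and 12 among optimal promoter peaks (1.07%). Summits in a 5′ UTR made up 34.0% of members and 24.4% of optimal promoter peaks, while intergenic summits made up 34.4% and 47.6%. The sequence under members was richer in G and C. GC content in 201 bases around the summit had a median of 42.8% in members (41.8 to 43.3) and 38.8% in optimal promoter peaks (38.3 to 39.3). Centred on the nearest TSS in place of the summit, the medians were 43.8% in members and 44.8% in optimal promoter peaks. Among summits 0 to 200 bp upstream of the TSS they were 40.3% in 580 members and 38.3% in 637 optimal promoter peaks. GC content and summit position moved together here, and their part in the signal was not tested.

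Most members were found in both replicates, with weaker and less evenly ranked signal. Of the 1248 members that overlap no optimal peak, 1148 (92.0%; interval 90.3 to 93.4) overlapped a peak of both replicates' lists, against 1105 of 1117 optimal promoter peaks (98.9%). Nearly all of the gap came from replicate 2: over all 1306 members, 97 had no overlapping peak in its list of 30000 and 3 had none in replicate 1's. A replicate summit within 100 bp of the pooled summit in both replicates was found at 74.2% of the 1248 (71.7 to 76.6) and at 92.8% of optimal promoter peaks. The 3 without a replicate 1 peak were at sNPF (pooled signal 63.9), which encodes a neuropeptide, Indy (60.1), which encodes a citrate transporter, and Cul2 (57.2), which encodes a cullin. They are named because their number is small, after their values were seen.

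The replicate summits of a member lay farther apart. The median distance between them was 55 bp in the 1148 members (51 to 63) and 28 bp in optimal promoter peaks (26 to 31). They lay within 50 bp of each other at 47.0% of the 1148 members and 68.1% of optimal promoter peaks. A lower signal and a wider distance go together in these lists: the weaker optimal promoter peaks, those past rank 1000, had a median of 35 bp.

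In replicate signal the members had medians of 38.9 in replicate 1 and 26.3 in replicate 2, against 72.0 and 54.9 in optimal promoter peaks. Because pooled signal is close to the sum of the replicate values, the rule holds that sum in a narrow range, and a member that is high in replicate 1 has to be low in replicate 2. That limits how the next values can be read. Among the 1248 members, 173 (13.9%) ranked above the cut in replicate 1's list, 185 (14.8%) in replicate 2's and 897 (71.9%) in neither. Above it in both were 7 (0.561%), against 752 (67.3%) of optimal promoter peaks. The rule largely fixed this contrast, so it does not measure reproducibility. Signal was 50.6 at rank 2147 of replicate 1's list and 35.5 at rank 2164 of replicate 2's, while pooled signal of members ended at 81.9. Little room was left for a member to rank above the cut in both. Over all 1306 members 46 did so, of which 39 overlapped an optimal peak.

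The 7 were at Sfxn1-3, CG1227, CG12730, Ppa with a pair of peaks, and M1BP and CG8202 with a peak each, and they are named because they are few. The pair at Ppa shared its replicate values, 52.2 and 43.1, and the peaks at M1BP and CG8202, whose summits are 209 bp apart, shared 52.4 and 39.6. Sfxn1-3, which encodes a mitochondrial sideroflexin, had 59.4 in replicate 1 and 41.2 in replicate 2, at a pooled signal of 80.0. CG12730 had 60.1 and 35.5 at a pooled signal of 75.6. Each of these values ranked above the cut in its replicate's list, although the pooled peak ranked below it.

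Among all members with a peak in both, replicate 1 was the higher replicate at 78.6%, against 75.7% of optimal promoter peaks. The median ratio of replicate 1 to replicate 2 was 1.48 in the 1148 members (1.41 to 1.54), 1.40 in optimal promoter peaks past rank 1000 and 1.28 in all optimal promoter peaks (1.25 to 1.34). The replicates were more than 2-fold apart at 29.3% of the 1148 members and 17.7% of optimal promoter peaks. Over all 1306 members, once the median ratio was taken out, 15.2% were more than 2-fold apart, against 12.04% of optimal promoter peaks.

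**Figure D3:**
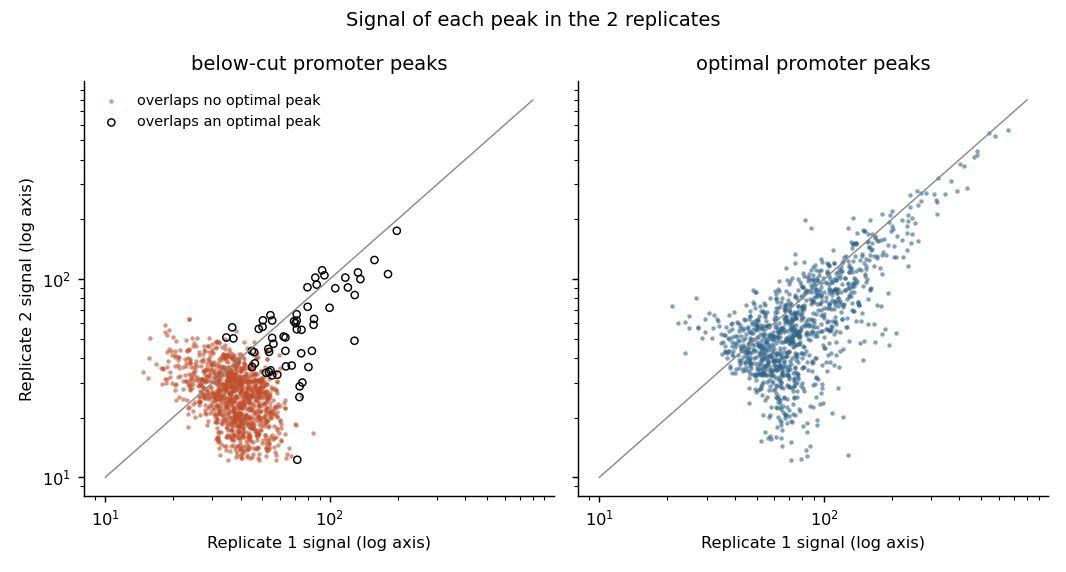
Signal of each peak in replicate 1 (x axis) and replicate 2 (y axis) on log axes, members at left and optimal promoter peaks at right; the line marks equal values, and peaks with no overlapping peak in a replicate are not drawn. Members that overlap an optimal peak (open circles, n = 58) reach 198.4, while the others form a band that slopes down, as a rule on the sum of the replicates gives.

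Single members show how far the replicates can differ at similar pooled signal. Besides mlt, the members highest in replicate 1 relative to replicate 2 were yuri, Cirl, ex and GEFmeso. At yuri, which encodes a coiled-coil protein, the values were 67.4 in replicate 1 and 12.8 in replicate 2, a ratio of 5.26. At ex (expanded), an upstream regulator of the Hippo growth pathway, they were 83.9 and 16.7. Cirl, the fly latrophilin receptor, had 63.7 and 12.6.

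The lowest ratios were at Hsc70-5, Dci, Lap1, p38a and the peak shared by Nmda1 and AspRS. At Hsc70-5, the mitochondrial Hsp70 chaperone, the signal was 15.7 in replicate 1 and 50.5 in replicate 2, a ratio of 0.312. p38a, a stress-activated kinase, had 19.2 and 55.1, and Lap1 had 18.5 and 54.2. The peak at p38a ranked 18223 in replicate 1 and 988 in replicate 2. With 2 replicates, the spread at a single promoter cannot be estimated beyond this difference.

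The strongest members ran from even to uneven in replicate signal. Ppcdc, an enzyme of coenzyme A synthesis whose promoter lies among the start sites of CG42496, Tim10 and CG42497, had 35.2 in replicate 1 and 41.5 in replicate 2. Cdk12, a kinase of the RNA polymerase II tail that shares its peak with SAK, had 35.6 and 35.8. Gart, an enzyme of purine synthesis, had 45.2 and 22.1, and Mmp2, a matrix metalloproteinase, had 63.0 and 16.6. CG44774 had 56.8 and 22.7. The other 5 of the strongest 10 were at Adck5, CG13220, CG7950 with Rpp14a, isoQC and brm, and isoQC is among those that overlap an optimal peak. Of the weakest 5, at jigr1, Su(z)2, Gdi, CG9643 and Vm34Ca, jigr1 overlaps one too and has replicate values of 117.0 and 101.6 beside a pooled signal of 53.9.

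Motif content of the members resembled that of optimal promoter peaks for most motifs and differed in a few. Motifs were counted from -150 to +50 around the nearest TSS, on both strands except for the TATA box, Initiator, TCT initiator and DPE. Those were read on the strand of the gene, in windows around their usual positions. The DRE (letters TATCGAT), the site of the factor DREF, was in 19.4% of members (interval 17.3 to 21.6), 15.2% of optimal promoter peaks (13.2 to 17.5) and 15.5% of all 13945 coding promoters. The last share was counted at a single representative TSS a gene (that of most annotated transcripts), and the others at the TSS nearest the summit. With representative TSSs throughout, the DRE was at 21.1% of members and 17.1% of optimal promoter peaks. Within the optimal list it was in 18.4% of promoter peaks past rank 1000 and 11.7% of those ranked 1 to 1000. Ohler 1 (GGTCACAC), the site of M1BP, was in 9.65% of members (8.10 to 11.4), 6.54% of optimal promoter peaks (5.16 to 8.15) and 7.09% of all coding promoters. With representative TSSs these were 11.6% of members and 7.88% of optimal promoter peaks. At the TSS nearest the summit, optimal promoter peaks past rank 1000 held Ohler 1 in 7.41% (5.42 to 9.86).

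GAGA repeats (GAGAGAG), bound by GAGA factor, went the other way at the distance limit of 500 bp. They were in 8.96% of members (7.47 to 10.6), 11.9% of optimal promoter peaks (10.1 to 13.95) and 4.68% of all coding promoters. The strongest optimal promoter peaks, ranked 1 to 1000, held them in 14.7%. Those past rank 1000 held them in 9.31% (7.07 to 11.97), close to the share in members. TATA boxes (TATAAA, -45 to -20) were in 3.14% of members, 4.92% of optimal promoter peaks and 8.15% of all coding promoters. The intervals of members and optimal promoter peaks overlapped slightly for the DRE, for Ohler 1 and for GAGA, and a difference was not tested.

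These directions were compared in the replicates' own lists, below the cut against above it. The DRE was in 20.2% against 15.1% in replicate 1's list and in 17.1% against 14.2% in replicate 2's. Ohler 1 was in 10.3% against 7.29% and in 9.88% against 6.65%. GAGA was in 8.78% against 12.8% and in 8.82% against 10.5%. The TATA box did not keep its direction, with 3.35% against 4.65% in replicate 1's list and 4.51% against 4.05% in replicate 2's.

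Other motifs were close in both groups. The Initiator (TCAGT or TCATT) was in 11.9% of members, 12.5% of optimal promoter peaks and 10.2% of all coding promoters. The DPE (AGACG with A or G in the first place and A or T in the third, at 22 to 36) was in 7.66%, 8.15% and 5.67%, in the same order. The E-box (CAGCTG) was in 17.2%, 18.7% and 14.2%, Ohler 6 (GTATATTT or GTATTTTT) in 9.26%, 8.24% and 8.53%, and Ohler 7 (CATCNCTA) in 8.58%, 7.25% and 5.46%. The TCT initiator (TCTTTC with T or C in the first and in the last place, at -6 to 8) was rare in all 3, at 1.38%, 1.61% and 1.03%. No motif of the 11 was found in 32.1% of members, 35.2% of optimal promoter peaks and 41.8% of all coding promoters. Each motif was counted on its own, so matches of different motifs can overlap, and no match says only that these letters were not in the window.

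**Figure D4:**
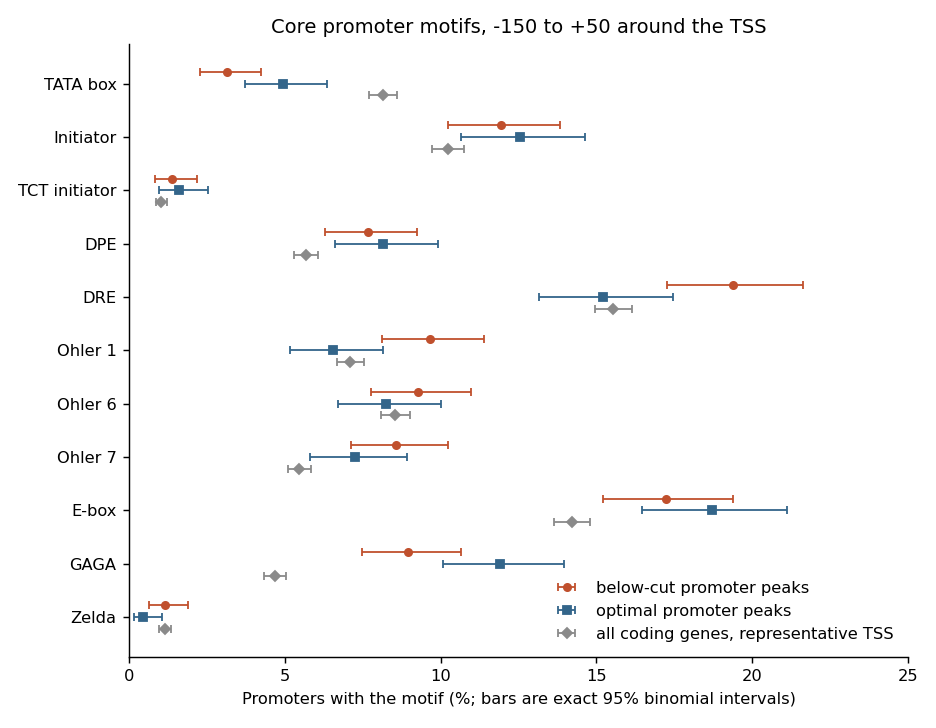
Percent of promoters with each of 11 motifs between -150 and +50 around the TSS, for members and optimal promoter peaks at the TSS nearest the summit and for all coding genes at a representative TSS (bars are exact 95% binomial intervals). Members stand above optimal promoter peaks for the DRE (19.4% against 15.2%) and Ohler 1 (9.65% against 6.54%) and below them for GAGA (8.96% against 11.9%).

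The Zelda site (CAGGTAG), read by the factor that opens chromatin in the early embryo, was in 15 members (1.15%), 0.448% of optimal promoter peaks and 1.14% of all coding promoters. The gap between the groups was smaller in replicate 2's own list, 0.767% below the cut and 0.629% above it, and 0.617% of members had the site when ranks ended at 3500. The 15 include the pair-rule gene odd (pooled signal 63.2, summit at 25 bp) and slp1 (59.5, at -44 bp). They also include the gap gene hb (56.3, at 240 bp) and the Notch target E(spl)m5-HLH (74.8, at 9 bp). Of these, hb was named after its values were seen. Replicate 1 was higher at all of these genes, with 37.7 against 24.0 in replicate 2 at odd. The values in the same order were 53.4 and 14.6 at slp1, 34.9 and 15.9 at hb, and 45.0 and 27.1 at E(spl)m5-HLH. Of the Zelda members that overlap no optimal peak, 12 had a peak in both replicates, and replicate 1 was higher at 91.7% of them. Among members without the site, taken in the same way, replicate 1 was higher at 78.5% (n = 1136).

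The ratio of the replicates was set against the motifs among the 1148 members. Members with an Initiator had a median ratio of replicate 1 to replicate 2 of 1.76 (interval 1.66 to 1.99; n = 136), and those without had 1.43 (1.36 to 1.49; n = 1012). In optimal promoter peaks the medians were 1.33 with (1.18 to 1.47) and 1.28 without (1.25 to 1.34), and these intervals overlapped. Of all the motifs searched, the Initiator alone had intervals that stood apart among members, and not every motif is given here. For the DPE the intervals overlapped among members, with 1.66 with (1.43 to 1.94) and 1.47 without (1.39 to 1.53). They stood apart in optimal promoter peaks, with 1.43 with (1.34 to 1.72) and 1.26 without (1.23 to 1.32). For GAGA the intervals overlapped among members, with 1.72 with (1.41 to 1.91) and 1.47 without (1.39 to 1.53), against 1.43 with (1.35 to 1.59) and 1.26 without (1.22 to 1.31) in optimal promoter peaks. For Ohler 7 they overlapped in both groups, with 1.31 with (1.19 to 1.51) and 1.49 without (1.43 to 1.56) among members, and 1.24 and 1.29 in optimal promoter peaks. These values are descriptive, and no test of a difference was made.

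Members stood at fewer shared promoters. A coding TSS of at least 2 genes lay within 500 bp of the summit at 364 members (27.9%; 25.5 to 30.4) and at 388 optimal promoter peaks (34.7%; 31.9 to 37.6). The direction was the same in replicate 1's list, 25.8% against 30.5%, and in replicate 2's, 29.3% against 39.8%. At 334 members the start sites lay on both strands. Shared promoters were less common at members with an Initiator (7.69%), GAGA (8.55%) or DPE (9 of 100) than at those with Ohler 7 (45.5%) or Ohler 1 (41.3%).

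In all, 1597 of 13945 coding genes (11.5%) had a TSS within 500 bp of a member, and 1460 (10.5%) had one within 500 bp of an optimal promoter peak. These shares are the background for the gene lists below. The overlap was 175 genes, 10.96% of those at members and 11.99% of those at optimal promoter peaks. A member or an optimal promoter peak was found at 2882 genes, 20.7% of coding genes, and 1422 had a member only. The genes at members were long: their median span was 3772 bp, close to 3802 bp at optimal promoter peaks and above 2166 bp over all coding genes. A pair of member peaks lay at 94 genes, and 3 lay at Eip63E, a cyclin-dependent kinase gene induced by ecdysone. The Eip63E peaks with pooled signals of 75.5 and 58.2 lay at the same start site, at 286 and -445 bp. The peak of 56.0 lay at another, at -45 bp. The chromosomes held members about as they hold coding genes, with 15.4% on X against 15.7% of all coding genes.

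**Figure D5:**
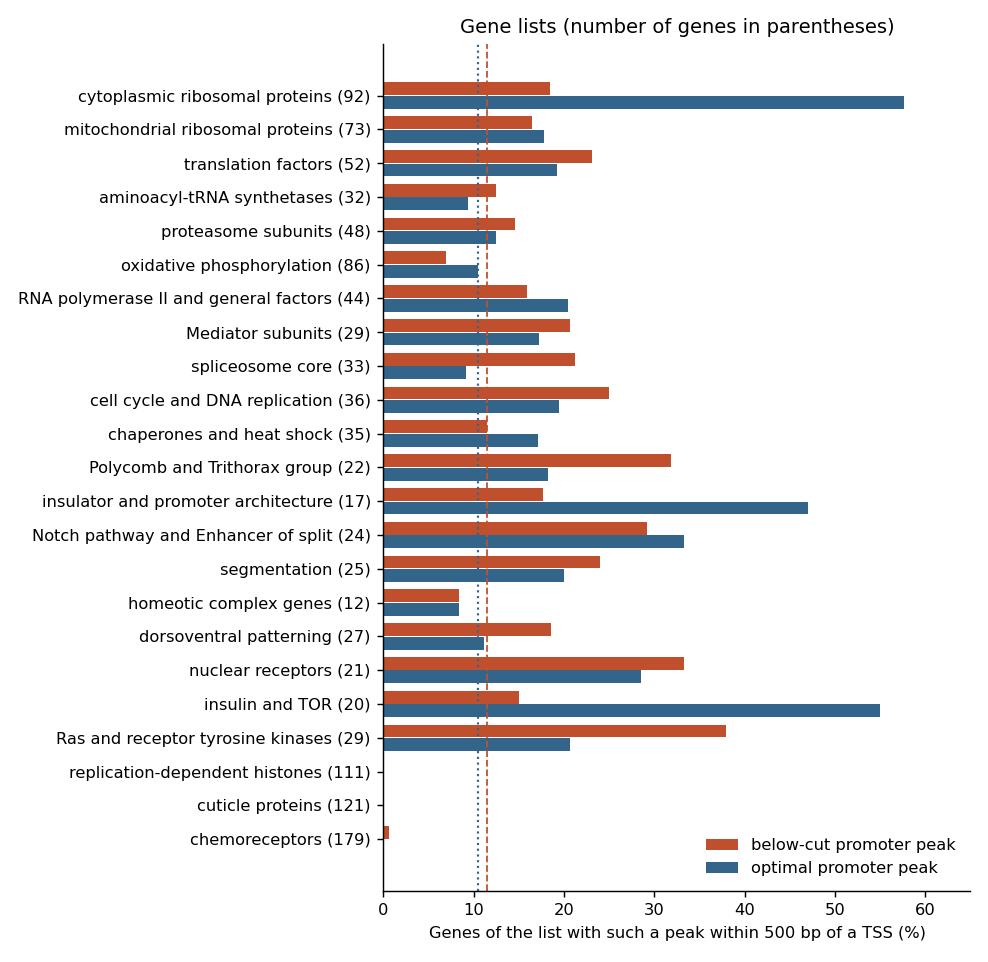
Percent of the genes of 23 lists with a member (upper bar) or an optimal promoter peak (lower bar) within 500 bp of a TSS; the dashed line marks 11.5% and the dotted line 10.5%, the shares over all coding genes. Cytoplasmic ribosomal protein (57.6%), insulin and TOR (55.0%) and insulator genes (47.1%) stand farthest to the right for optimal promoter peaks. For members the highest shares are those of Ras and receptor tyrosine kinase (37.9%), nuclear receptor (33.3%) and Polycomb and Trithorax genes (31.8%), with intervals that overlap.

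Genes of the translation machinery were divided between the ranks. Of 92 cytoplasmic ribosomal protein genes, 17 (18.5%; interval 11.1 to 27.9) had a member and 53 (57.6%) had an optimal promoter peak, so 67 had either. The members were led by RpL7A (79.2), RpLP1 (78.7), RpS2 (78.2) and RpS14b (76.2). Among the strongest members at these 17 genes, that of RpL7A alone had a TCT initiator at the nearest TSS. RpL7A had its summit 6 bp past the TSS and 45.5 in replicate 1 and 35.1 in replicate 2. RpS14b has a near-identical neighbour, RpS14a, and the lists do not show how reads of the copies were divided. Of 73 mitochondrial ribosomal protein genes 12 had a member and 13 an optimal promoter peak, and no gene of that list had both. Over all coding genes 10.96% of those at members had both, and 12 genes are too few to tell none from that share.

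Translation factor genes had 12 of 52 at members and 10 of 52 at optimal promoter peaks, and eIF3k (73.5) and eEF1alpha2 (73.5) led the members. Among 32 aminoacyl-tRNA synthetase genes, 4 had a member and 3 an optimal promoter peak. ThrRS, whose TCT initiator is printed above, had 33.9 in replicate 1 and 46.6 in replicate 2. No TCT initiator was found at the strongest members of the 12 translation factor genes, or of the other synthetase genes with a member. TrpRS (69.9), in a peak whose nearest TSS was that of Vps16A, had 57.0 in replicate 1 and no peak in replicate 2's list.

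Of the housekeeping complexes, the proteasome and the chaperones lay near the background of 11.5%. Proteasome subunits had 7 of 48 at members and 6 of 48 at optimal promoter peaks, with Rpn5 (78.9) the strongest, in a peak that overlaps an optimal peak. Oxidative phosphorylation genes had 6 of 86 at members, 6.98% against that background, and 9 of 86 at optimal promoter peaks. In replicate 1's own list 10 of them were below the cut, and a window of 1000 bp gave 13 at members. Chaperone genes had 4 of 35 at members, Hsc70-5, DnaJ-60, Hsp23 and DnaJ-H, and 6 of 35 at optimal promoter peaks. Spliceosome genes had 7 of 33 at members (21.2%; 8.98 to 38.9) and 3 of 33 at optimal promoter peaks, led by snRNP-U1-C (77.6) and Sf3a1 (68.3). With a window of 200 bp 4 had a member, and with the gene of the nearest TSS alone 3 did. The summit lay -382 bp from the TSS of snRNP-U1-C, in a peak whose nearest TSS was that of gukh. Cell cycle genes had 9 of 36 at members (interval 12.1% to 42.2%) and 7 of 36 at optimal promoter peaks. They were led by polo (70.6), a mitotic kinase whose replicate values were 49.2 and 30.1, Dp (62.9), the partner of E2F, and CycB3 (61.0), a mitotic cyclin with 52.0 and 15.7.

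RNA polymerase II and general factor genes had 7 of 44 at members (15.9%, 6.64 to 30.1), an interval that holds the background of 11.5%. They had 9 of 44 at optimal promoter peaks. No gene was at both, and 7 genes are too few to tell none from the 10.96% over all genes at members. The number below the cut was 11 in replicate 1's own list and 4 in replicate 2's. Trf2, which encodes a TBP-related factor used at TATA-less promoters, had a pooled signal of 66.8, with 61.1 in replicate 1 and no peak in replicate 2's list. TfIIA-L (66.1) and TfIIB (62.2) encode the general factors that negative cofactor 2 keeps from TATA-binding protein. TfIIA-L had 32.1 in replicate 1 and 36.6 in replicate 2, and TfIIB had 43.6 and 16.2. The summits lay -248 bp from the TSS of TfIIA-L and -359 bp from that of TfIIB, in peaks shared with pll and Bug22. Mediator genes had 6 of 29 at members and 5 of 29 at optimal promoter peaks, led by MED16 (78.2) and skd (78.1). The summit lay -459 bp from the TSS of skd, in a peak whose nearest TSS was that of Pdss2.

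Of 22 Polycomb and Trithorax group genes, 7 (31.8%; 13.9 to 54.9) had a member and 4 an optimal promoter peak. brm, the ATPase of the Brahma complex, had 81.6, Pc (Polycomb) 69.7, Su(z)2 69.5 and Sfmbt 69.2. In replicate signal brm had 47.7 and 30.8, Pc 47.7 and 20.2, Su(z)2 56.6 and 14.1, and Sfmbt 33.5 and 41.9. The weaker Su(z)2 member named above (53.9) had the same 56.6 in replicate 1 and no peak in replicate 2's list. ph-p and ph-d, near-identical tandem copies, also had members, and the lists do not show how their reads were divided. Insulator and promoter architecture genes had 3 of 17 at members (BEAF-32, M1BP and CTCF) and 8 of 17 at optimal promoter peaks. In each replicate's own list 1 of the 17 was below the cut. M1BP, the factor that binds Ohler 1, had 63.3, with the neighbouring peak described above.

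Of 29 genes of Ras and receptor tyrosine kinase signalling, 11 (37.9%; 20.7 to 57.7) had a member and 6 an optimal promoter peak. With a window of 200 bp the counts were 5 at members and 5 at optimal promoter peaks. drk, the adaptor that links receptors to Sos, had 81.1, with 58.3 in replicate 1 and 30.4 in replicate 2. Sos, the exchange factor for Ras, had 72.7 and aop, a repressor of the pathway's targets, 69.7. Star (S, 79.4), which helps the pathway's ligands leave the cell that makes them, was the second strongest. Members also lay at the receptors Egfr, htl and Pvr, the ligands pyr and spi, the phosphatase csw and the factor pnt, named to complete the list. At pnt and pyr replicate 2's list had no peak. This list had a median span of 14083 bp and 1.83 start sites a gene, against 2166 bp and 1.41 over all coding genes, and the part of gene length in the count was not tested.

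Below the cut of each replicate's own list, down to rank 5000, the count for Ras and receptor tyrosine kinase genes was 9 in replicate 1 and 7 in replicate 2, against 7 and 5 above it. For Polycomb and Trithorax genes it was 4 against 5 above the cut in replicate 1, the other way from the pooled list, and 7 against 5 in replicate 2. Insulin and TOR genes ran the other way, with 3 of 20 at members (foxo, Lnk and Pdk1) and 11 of 20 at optimal promoter peaks. foxo (78.5), the transcription factor that insulin signalling restrains, had 51.9 in replicate 1 and 29.4 in replicate 2. Lnk (77.0) had 70.9 in replicate 1 and no peak in replicate 2's list. Notch pathway and Enhancer of split genes had 7 of 24 at members and 8 of 24 at optimal promoter peaks. Among the members were kuz (66.2), a protease that cleaves Notch or its ligands, and mib1 (65.1), a ubiquitin ligase for the ligands. The member at fng (62.1), a glycosyltransferase that modifies Notch, had 45.3 in replicate 1 and no peak in replicate 2's list.

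Hormone and patterning genes were found as well. Nuclear receptor genes had 7 of 21 at members (33.3%; 14.6 to 57.0; 4 with a window of 200 bp) and 6 of 21 at optimal promoter peaks, with a median span of 22386 bp and 2.38 start sites a gene. EcR, the ecdysone receptor, had 69.4, with 49.5 in replicate 1 and 19.3 in replicate 2. Hr78 had 75.2, ftz-f1 72.3 and Hnf4 66.3. Segmentation genes had 6 of 25 at members and 5 of 25 at optimal promoter peaks, and 3 below the cut in replicate 2's own list. The gap gene Kr had 70.2, with 52.3 in replicate 1 and no peak in replicate 2's list, and nkd, a feedback inhibitor of Wingless signalling, had 68.6.

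Dorsoventral patterning genes had 5 of 27 at members and 3 of 27 at optimal promoter peaks, and 2 below the cut in replicate 2's own list or with a window of 200 bp. pip, a sulfotransferase of the egg chamber, had 79.8, with 69.6 in replicate 1 and no peak in replicate 2's list. The mesodermal repressor sna had 72.7, with 46.9 in replicate 1 and 29.9 in replicate 2. Of 12 homeotic complex genes Dfd (73.2) was the only one at a member, and 1 had an optimal promoter peak. In each replicate's own list 2 of the 12 were below the cut. With lists this small a difference of a few genes lies within the intervals.

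Members were nearly absent from the lists of cuticle protein, chemoreceptor and histone genes. Of 121 cuticle protein genes none had a member (at most 3.003%), although 26 had some peak among the 30000 pooled peaks and 1 was below the cut in each replicate's own list. Of 179 chemoreceptor genes only Gr28b had a member, with a pooled signal of 60.9, and none had an optimal promoter peak. Of 111 replication-dependent histone genes none had a peak anywhere in the pooled list (at most 3.27%). These histone genes lie in a repeated array of near-identical copies, and how reads that match several copies were treated is not stated, so a zero here does not describe binding.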

How the data were processed

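The authors called peaks against a control in each replicate and in the pool, and derived the optimal list by irreproducible discovery rate, per the file headers and deposited notes. The caller, aligner and threshold were not given in the sources used here. Sequencing depth is unknown. The optimal list held 2174 peaks, and members had pooled ranks 2175 to 5000. The signal of each peak and its -log10 q-value were used as deposited by the authors; so was the offset of the summit, another deposited column (other). Peaks were ranked by signal and assigned to coding genes of Ensembl release 115 within 500 bp, on dm6, counted from 1. Replicate values came from the strongest overlapping peak. Computation used Python 3.11.15, numpy 2.4.6, pandas 2.3.3, scipy 1.17.1 and matplotlib 3.10.9, and 14 checks on simulated data. Shares have exact (Clopper-Pearson) 95% intervals, and medians exact order-statistic ones. The members, the 23 gene lists and the motifs were chosen with earlier results of these data known; 3 list symbols matched no gene. Names come from the strongest 10 and weakest 5 members, those at the edges, the 5 highest and lowest replicate ratios, the 5 best lower replicate ranks, the strongest 3 per motif, up to 4 genes per list, and genes with 3 or more members, not all of which are printed; other names are marked. The lists on dm3 were not used.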

Additional observations from a re-analysis of the deposited data

How the results depend on the processing

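No paired analysis was possible because the study has a single group. Of 57 alternative values for the summary results 28 stayed within their interval (counts of members, within 1.5 times) and 29 did not; for motif shares 16 of 110 and for list counts 28 moved. Beside the list counts given above, a window of 1000 bp gave 26 cytoplasmic ribosomal protein, 6 insulator, 5 insulin and TOR, 3 chemoreceptor, 2 cuticle and 2 homeotic genes at members. With the gene of the nearest TSS alone there were 4 RNA polymerase II and general factor, 3 proteasome and 2 aminoacyl-tRNA synthetase genes. With a window of 200 bp the promoter share was 34.0%, 15.3% of members were at 2 or more genes and 4.69% of their genes also had an optimal promoter peak; with 1000 bp these were 56.2%, 36.02% and 16.3%. Ending at rank 3500 left 648 members, a promoter share of 48.9%, 24.7% of summits more than 50 bp downstream and 96.0% in both replicates. Ending at rank 7500 gave 2223 members, 41.7%, 33.5% and 88.0%, with 48.3% of summits within 100 bp and a median position of -9 bp. When the replicate peak had to hold the pooled summit, 87.8% of members were in both replicates, and among the 10000 strongest of each list 67.4% were, with a median ratio of 1.35. Without members within 1000 bp of an optimal summit 4.87% of genes also had an optimal promoter peak. Each replicate's own list, which leaves out the other, gave promoter shares of 36.9% to 49.6%, 43.4% to 53.2% of summits within 100 bp, median positions of -31 to -6 bp and 31.3% to 33.0% more than 50 bp downstream. Alternatives chosen after seeing the data left out members that overlap an optimal peak, which gave 6.46% of genes shared, or asked for a replicate summit within 100 bp of the pooled summit, which gave 74.4% in both replicates; the downstream share was also added then. The share within 100 bp turned below that of optimal promoter peaks with the end at rank 7500 (48.3% against 50.1%) and in replicate 2's own list (43.4% against 45.3%). The cause of these moves was not tested. With 2 replicates, unknown depth and relaxed lists cut at 30000 peaks, an absent replicate peak shows only that it ranked below the list's end.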
